A study of Mus musculus with 9 samples.

Results

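Cells make cholesterol from acetyl-CoA through mevalonate and isoprenoids to squalene, and then from squalene to cholesterol. Transcription of these enzymes is switched on by SREBP-2, which the escort protein SCAP carries out of the endoplasmic reticulum when sterols are low and which INSIG proteins hold back when sterols are high. Sterols also act the other way through the LXR receptors, which raise genes that pump cholesterol out of the cell or remove lipoprotein receptors from its surface. The genes described here are 30 genes of this system, chosen by symbol, out of 55416 genes in each count table. Of these, 19 encode enzymes of synthesis, 5 control SREBP, 3 move sterols inside the cell and 3 act in efflux or receptor turnover.

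The RNA came from the mouse line 4T1, derived from a mammary tumour of the BALB/c strain, in 3 groups of 3 libraries. The MRC+L group had MRC nanoparticles for 12 h and 660 nm light for 3 min, the MRC group had the nanoparticles for 12 h without light, and the PBS group was cultured in DMEM and is labelled untreated. All 3 groups share the line and the medium, a group with light alone was not analysed here, and the labels do not spell out MRC. The irradiance is printed as 180 per square centimetre in mW in one label and in mV in another. Since no label says that the libraries came from separate cultures, p-values measure only the spread between these libraries, which may be technical.

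Library totals lay between 15019765 and 20044166 counts. Levels are in CPM, the count scaled to library size, here with TMM factors (trimmed mean of M values), for replicates 1, 2 and 3 of each group in that order. Fold changes were estimated with edgeR, and its quasi-likelihood p-values were adjusted by Benjamini-Hochberg over the 13439 genes tested. A gene was called where the adjusted p was under 0.05. The libraries of PBS replicated less closely than the others, with a biological coefficient of variation of 0.058 within MRC+L, 0.0807 within MRC and 0.28 within PBS. PBS replicate 2 stood apart. Its shortest 10% of genes exceeded its longest 10% by 1.25 on the log2 scale, relative to the mean of all libraries, while the other 8 libraries lay between -0.32 and 0.142. Calls against PBS that changed without this library are given with and without it. Krt8 (306 to 904 CPM) and Krt18 (169 to 822 CPM), keratins of epithelial cells, were plentiful in all 9 libraries, and Krt7 had 69.4 to 143 CPM. However, Epcam and Cldn7, which also mark epithelium, had at most 5 and 6 counts in any library. Cdh1 (1.95 to 5.16 CPM) and Cldn4 (0.157 to 1.00 CPM) were scarce as well. The sum of the 7 epithelial markers was 557 to 570.2 CPM in MRC+L, 632 to 664 CPM in MRC and 1054 to 1874 CPM in PBS libraries. The sum of 6 leukocyte markers was at most 1.27 CPM, with Cd3e and Adgre1 at 0 counts throughout. Of 5 fibroblast markers only Pdgfra was above 2 CPM in any library, and the sum was 68.8 to 77.5 CPM in MRC+L, 71.0 to 86.7 CPM in MRC and 30.7 to 59.3 CPM in PBS libraries. The 3 endothelial markers summed to at most 7.41 CPM and the 4 hepatocyte markers to at most 3.34 CPM in any library. The part of these shifts in the results below was not tested.

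The promoters of 4 synthesis genes whose RNA was far lower with nanoparticles are shown because SREBP acts through a short sterol regulatory element next to boxes for the factor NF-Y. They are the 250 bases before each RefSeq start in GRCm38.p6, read 5′ to 3′ on the strand of the gene. Capitals mark the element core TCACNCCAC and the NF-Y box CCAAT, each searched on both strands, so that a box on the other strand appears as ATTGG. Hmgcs1 lies on the plus strand at chr13:119690101-119690350, Mvk on the plus strand at chr5:114444019-114444268, Idi1 on the plus strand at chr13:8885356-8885605 and Acat2 on the minus strand at chr17:12960726-12960975.
Hmgcs1: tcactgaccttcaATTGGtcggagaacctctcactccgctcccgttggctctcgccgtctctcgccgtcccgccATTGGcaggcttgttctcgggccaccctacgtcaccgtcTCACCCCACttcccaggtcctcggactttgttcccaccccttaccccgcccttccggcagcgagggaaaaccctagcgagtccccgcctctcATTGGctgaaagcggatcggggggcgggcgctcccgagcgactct
Mvk: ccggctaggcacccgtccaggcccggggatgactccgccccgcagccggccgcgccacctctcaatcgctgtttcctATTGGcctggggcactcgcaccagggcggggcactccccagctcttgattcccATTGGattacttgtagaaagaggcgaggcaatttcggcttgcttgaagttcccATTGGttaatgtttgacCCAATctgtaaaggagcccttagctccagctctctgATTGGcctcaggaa
Idi1: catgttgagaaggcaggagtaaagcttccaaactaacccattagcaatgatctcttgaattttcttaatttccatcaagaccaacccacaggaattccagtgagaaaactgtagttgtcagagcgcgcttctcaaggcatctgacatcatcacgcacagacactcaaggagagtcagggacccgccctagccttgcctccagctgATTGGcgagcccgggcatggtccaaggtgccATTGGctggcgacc
Acat2: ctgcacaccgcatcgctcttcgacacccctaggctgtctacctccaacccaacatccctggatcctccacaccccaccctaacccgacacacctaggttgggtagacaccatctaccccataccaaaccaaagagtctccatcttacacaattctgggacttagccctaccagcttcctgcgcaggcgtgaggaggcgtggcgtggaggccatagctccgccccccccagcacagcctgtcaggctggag

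The core was found in Hmgcs1 alone among the 16 synthesis genes with a promoter in the table, 137 bases before its start, against 1.22% of 27025 genes. CCAAT was found before at least 1 start in 15 of these 16 genes, all but Acat2, against 37.5% of genes. Dhcr7 and Pmvk have several starts and lacked the box before some of them. Mvk held 5 CCAAT boxes, Hmgcs1 held 3 and Idi1 held 2. Of the 5 SREBP control genes, 4 held a CCAAT box before at least 1 start, though Insig2 and Srebf1 lacked it before others. Npc2 and Mylip held it as well. The DR4 element, a repeat of AGGTCA at a spacing of 4 bases to which LXR binds with RXR, was found in 0 of the 24 genes with a promoter and in 0.0148% of all genes. In all, 24 of the 30 genes had an entry, and Fdps, Fdft1, Sqle, Stard4, Npc1 and Abcg1 are named only. A match describes these letters in this window and is not evidence of binding.

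Most of the synthesis genes fell with nanoparticles, with light and without it, while the efflux transporter Abcg1 and the receptor ligase Mylip rose. In MRC+L against PBS, 17 of the 29 genes tested fell and 5 rose, where 24.5% of all tested genes fell and 21.8% rose. The corresponding counts for MRC against PBS were 15 lower and 5 higher, where 19.8% of all tested genes were lower and 17.8% higher. The largest falls were in Acat2, Idi1, Mvk and Stard4, and the largest rises were in Abcg1 and Npc1. Both comparisons share the PBS libraries, so their values are given side by side and not as separate evidence. RNA of a bulk culture cannot tell apart fewer cells that express a gene from less RNA in each cell.

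**Figure D1:**
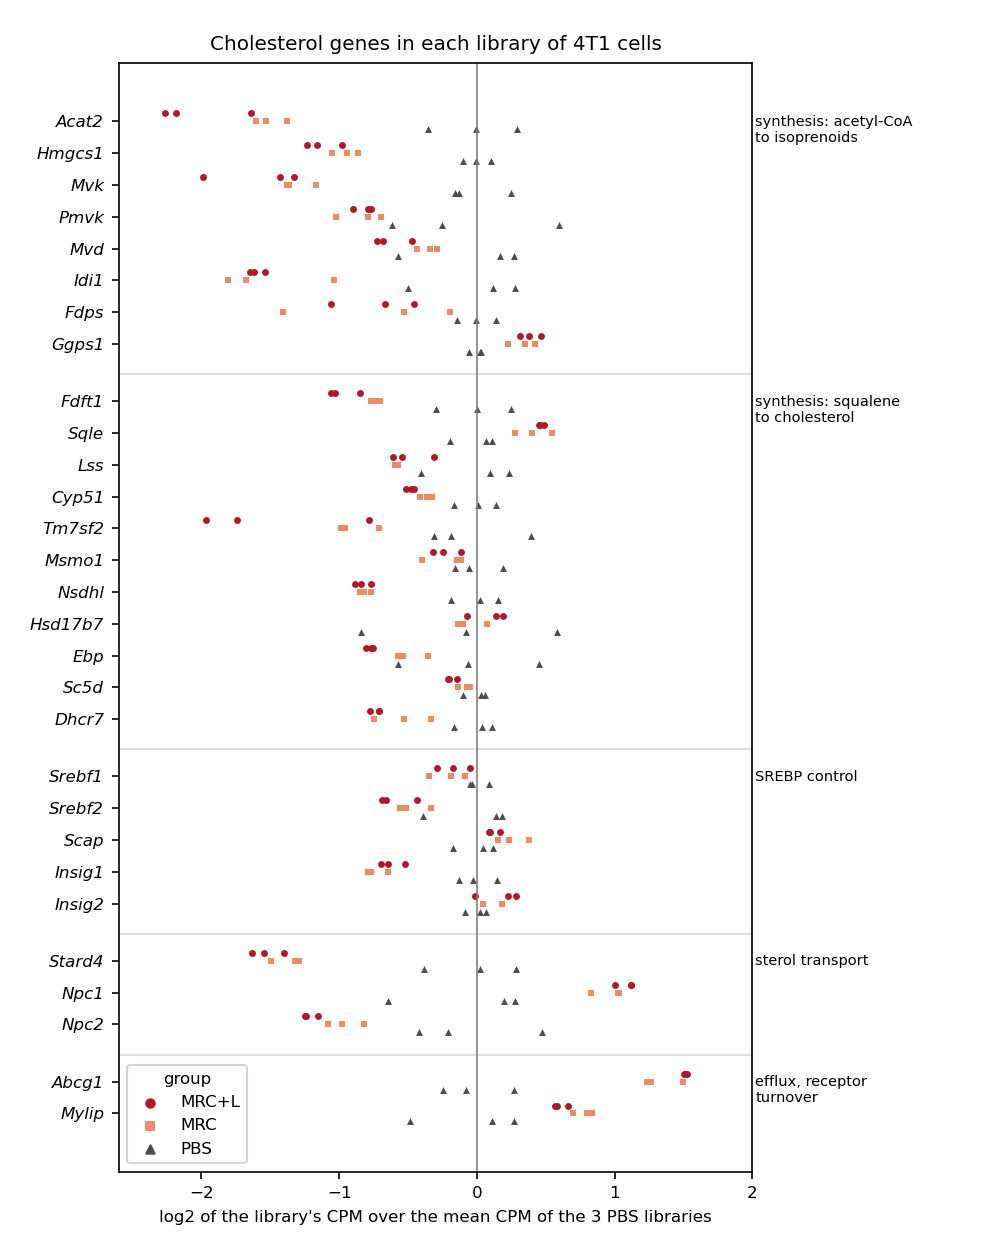
Each point is a library of 4T1 cells: log2 of its CPM over the mean of the 3 PBS libraries (x axis) for the 29 genes tested, by role (y axis), with MRC+L, MRC and PBS libraries drawn as separate symbols. Most synthesis genes sit left of 0 in both nanoparticle groups, Acat2 farthest, while Ggps1, Sqle, Npc1, Abcg1 and Mylip sit to the right.

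The early steps, from acetyl-CoA to isoprenoids, held the 3 largest falls of synthesis, those of Acat2, Idi1 and Mvk. Of 8 early genes, 6 fell and 1 rose in MRC+L against PBS (median log2 fold change -0.97), and 5 fell and 1 rose in MRC against PBS (median -0.89). The median over all genes tested was -0.03 in both comparisons. Of these, 24.5% fell and 21.8% rose in MRC+L, and 19.8% fell and 17.8% rose in MRC. Acat2 encodes the cytosolic thiolase that joins 2 molecules of acetyl-CoA, and is not the esterifying enzyme of similar name. It had 12.9, 8.42 and 8.86 CPM in MRC+L libraries, 15.6, 13.3 and 14.0 CPM in MRC libraries and 40.2, 49.5 and 31.5 CPM in PBS libraries. Every MRC+L library was below every MRC library, and every MRC library was below every PBS library. The fall was 4.00-fold in MRC+L (log2 fold change -2.00 ± 0.21 (SE), adjusted p = 5.09e-05) and 2.83-fold in MRC (-1.50 ± 0.20, adjusted p = 0.000334). In the annotation, 33.9% of the 75-base stretches of Acat2 also occur in Acat3 or Tcp1, so its count is uncertain to that extent.

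Hmgcs1 makes HMG-CoA, the compound that the pathway then commits to mevalonate, and lies on chromosome 13 at 120151915 to 120169796 of GRCm39. Its levels were 45.6, 40.3 and 38.2 CPM in MRC+L libraries, 46.7, 43.4 and 49.4 CPM in MRC libraries and 89.7, 83.8 and 96.6 CPM in PBS libraries, and no PBS library came near the others. It fell 2.17-fold in MRC+L (-1.12 ± 0.11, adjusted p = 3.45e-05) and 1.93-fold in MRC (-0.95 ± 0.11, adjusted p = 0.000125). Gm48342 overlaps 12.1% of the exon bases of Hmgcs1, where its reads are uncertain. Mvk, the kinase that phosphorylates mevalonate first, had 5.50, 8.09 and 8.69 CPM in MRC+L libraries, 8.41, 8.49 and 9.71 CPM in MRC libraries and 19.9, 26.0 and 19.6 CPM in PBS libraries. The lowest PBS library was far above the highest nanoparticle library. Mvk fell 2.94-fold in MRC+L (-1.56 ± 0.19, adjusted p = 0.000153) and 2.46-fold in MRC (-1.30 ± 0.19, adjusted p = 0.000552). Idi1, the isomerase that turns isopentenyl diphosphate into its reactive partner, had 13.1, 12.4 and 12.1 CPM in MRC+L libraries, 11.8, 10.8 and 18.5 CPM in MRC libraries and 41.0, 26.7 and 45.9 CPM in PBS libraries. MRC replicate 3 was the highest nanoparticle library and was still below PBS replicate 2, the lowest of its group. Idi1 fell 3.03-fold in MRC+L (-1.60 ± 0.24, adjusted p = 0.000488) and 2.76-fold in MRC (-1.46 ± 0.24, adjusted p = 0.000992). Of its 75-base stretches, 23.6% are shared with other genes.

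**Figure D2:**
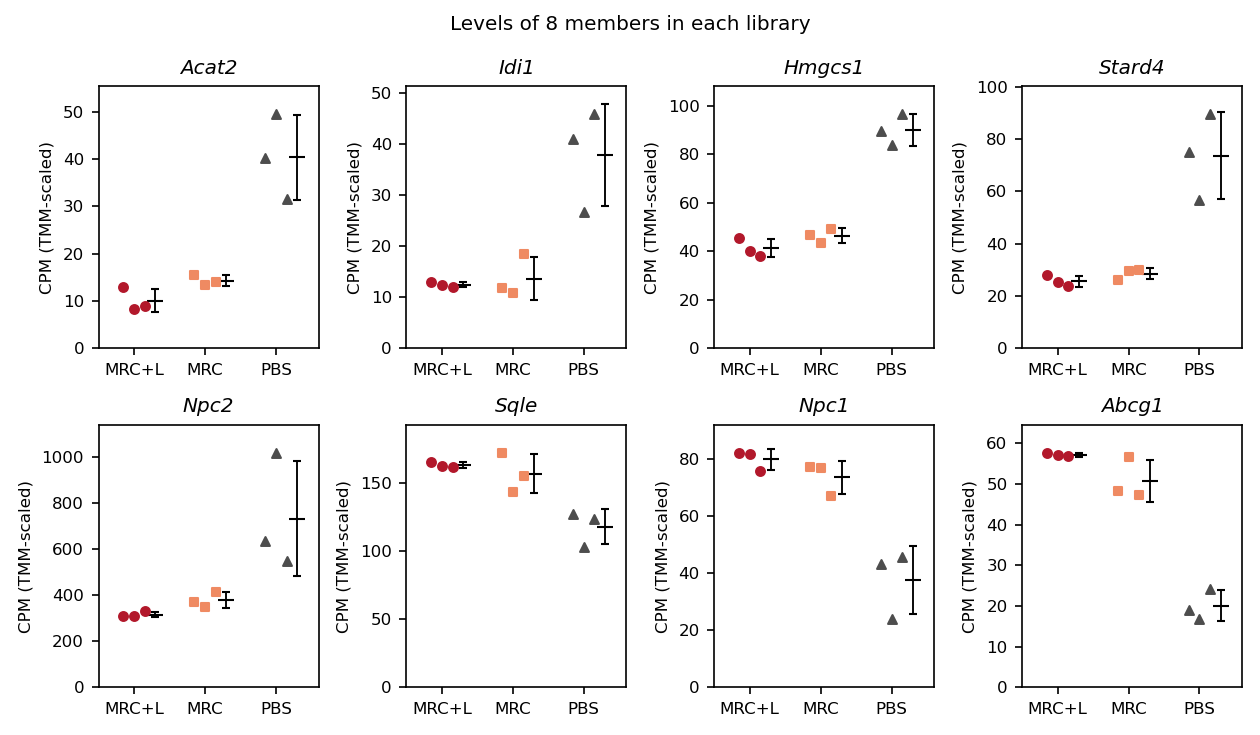
Levels in TMM-scaled CPM (y axes, from 0) of Acat2, Idi1, Hmgcs1, Stard4, Npc2, Sqle, Npc1 and Abcg1 in the MRC+L, MRC and PBS libraries (x axis), with 1 point per library and the mean ± SD of 3 libraries beside the points. The first 5 genes are lower in all nanoparticle libraries than in all PBS libraries, and the last 3 are higher.

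The other early enzymes moved less or less evenly. Pmvk, the second kinase of mevalonate, averaged 16.3 ± 0.772 CPM in MRC+L, 16.2 ± 1.86 CPM in MRC and 28.8 ± 13.0 CPM in PBS (SD, n = 3 each), and the size of its fall in both comparisons leaned on PBS replicate 2 at 43.5 CPM. Without that library Pmvk was still called, and its log2 fold change was -0.40 in MRC+L (adjusted p = 0.0155) and -0.42 in MRC (adjusted p = 0.0129), against -0.82 and -0.83 with it. Leaving out any MRC+L library ended the call of Pmvk in MRC+L (adjusted p up to 0.0833), and leaving out any MRC library ended that in MRC (up to 0.11). Mvd, the decarboxylase that yields isopentenyl diphosphate, fell in MRC+L (-0.62 ± 0.21, adjusted p = 0.0353), but its groups overlapped, and 10 of 18 other settings ended the call (adjusted p up to 0.119), among them each fit without PBS replicate 1 or without a library of MRC or MRC+L. In MRC its log2 fold change was -0.36 ± 0.21 (adjusted p = 0.207), and it passed without PBS replicate 3 (-0.57, adjusted p = 0.0127). Fdps, which joins isoprenoid units to farnesyl diphosphate, was scarce at 2.99 ± 0.608 CPM in MRC+L, 3.16 ± 1.23 CPM in MRC and 4.88 ± 0.485 CPM in PBS, with log2 fold changes of -0.70 (adjusted p = 0.0741) and -0.62 (adjusted p = 0.122) that did not pass. Of its 75-base stretches 23.5% are shared with other genes, and Gm43738 overlaps 26.7% of its exon bases, so its count and its low level are uncertain to that extent. Without PBS replicate 2, Fdps passed in both comparisons (adjusted p = 0.0264 in MRC+L and 0.0481 in MRC), and without MRC replicate 1 in MRC+L (adjusted p = 0.0326). Ggps1, which draws farnesyl diphosphate into the geranylgeranyl branch used to anchor proteins in membranes, went the other way with 47.6, 52.8 and 49.8 CPM in MRC+L libraries, 51.4, 44.7 and 48.7 CPM in MRC libraries and 36.9, 38.9 and 39.2 CPM in PBS libraries. All nanoparticle libraries were above all PBS libraries, and Ggps1 rose 1.31-fold in MRC+L (adjusted p = 0.00985) and 1.26-fold in MRC (adjusted p = 0.0232). The call in MRC was lost in 6 other settings, with adjusted p up to 0.097, among them the fits that left out replicate 1 of PBS or replicate 1 or 3 of MRC.

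Of 11 late genes, 7 fell and 1 rose in MRC+L against PBS, where 24.5% of all tested genes fell and 21.8% rose. In MRC against PBS, 6 fell and 1 rose, where 19.8% and 17.8% of all tested genes did so. The median log2 fold change of the late genes was -0.48 in each comparison. This median was nearer to 0 than that of the early genes, a difference that was not tested, and single genes crossed it, since Tm7sf2 fell more than Hmgcs1 in MRC+L. Fdft1, squalene synthase, had 31.3, 27.5 and 27.1 CPM in MRC+L libraries, 34.0, 33.1 and 34.7 CPM in MRC libraries and 56.4, 66.9 and 45.8 CPM in PBS libraries, with the groups apart in that order. It fell 1.97-fold in MRC+L (-0.98 ± 0.14, adjusted p = 0.000386) and 1.66-fold in MRC (-0.73 ± 0.14, adjusted p = 0.00254). Reads of Fdft1 are uncertain where it overlaps Ctsb, which covers 18.8% of its exon bases. Nsdhl, an enzyme of sterol C4 demethylation encoded on chromosome X, had 15.4, 16.2 and 14.95 CPM in MRC+L libraries, 15.6, 15.3 and 16.1 CPM in MRC libraries and 30.6, 24.1 and 28.0 CPM in PBS libraries. Its MRC+L and MRC libraries were interleaved, and both groups lay below PBS. It fell 1.78-fold in MRC+L (-0.83 ± 0.12, adjusted p = 0.000383) and 1.76-fold in MRC (-0.81 ± 0.12, adjusted p = 0.00055). Tm7sf2, a sterol C14 reductase, was scarce at 4.69, 2.07 and 2.42 CPM in MRC+L libraries, 4.93, 4.07 and 4.16 CPM in MRC libraries and 7.09, 10.6 and 6.53 CPM in PBS libraries. MRC+L replicate 1 stood nearer to the MRC libraries than to its own group. Reads of Tm7sf2 are uncertain where it overlaps Vps51, which covers 12.1% of its exon bases. Tm7sf2 fell 2.61-fold in MRC+L (-1.39 ± 0.31, adjusted p = 0.00507) and 1.84-fold in MRC (-0.88 ± 0.30, adjusted p = 0.043), and the call in MRC was lost in 6 of 18 other settings (adjusted p up to 0.1255), which include leaving out PBS replicate 1, MRC+L replicate 3 or any MRC library.

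Dhcr7, the last reductase of one branch to cholesterol, averaged 17.7 ± 0.484 CPM in MRC+L, 20.4 ± 2.90 CPM in MRC and 29.4 ± 2.87 CPM in PBS (SD, n = 3 each), a change of -0.73 ± 0.13 in MRC+L (adjusted p = 0.00155) and -0.53 ± 0.13 in MRC (adjusted p = 0.0108). The call in MRC was lost without MRC replicate 1 (adjusted p = 0.0511). Cyp51, the lanosterol demethylase, averaged 44.5 ± 0.885 CPM in MRC+L, 48.2 ± 1.45 CPM in MRC and 62.2 ± 6.43 CPM in PBS. Its fall was 1.40-fold in MRC+L (adjusted p = 0.00367) and 1.29-fold in MRC (adjusted p = 0.0177), where leaving out replicate 1 of PBS or replicate 2 or 3 of MRC ended the call (adjusted p up to 0.121 over 5 settings). Lss, which folds squalene epoxide into lanosterol, averaged 32.0 ± 3.55 CPM in MRC+L, 29.8 ± 0.226 CPM in MRC and 44.6 ± 9.72 CPM in PBS. It was called in both comparisons (adjusted p = 0.0326 in MRC+L and 0.0171 in MRC), but its MRC+L and PBS libraries overlapped, since PBS replicate 2 at 33.7 CPM was below MRC+L replicate 1 at 36.0 CPM. The call of Lss in MRC+L was lost in 6 settings (adjusted p up to 0.117) and that in MRC in 3 (up to 0.0581), where PBS replicate 1 or 3, MRC replicate 1 or 2, or MRC+L replicate 2 or 3 was left out, or the PBS and MRC+L libraries were fitted alone. Ebp, the sterol isomerase, had 12.5, 12.2 and 12.6 CPM in MRC+L libraries, 14.7, 14.4 and 16.7 CPM in MRC libraries and 20.4, 29.3 and 14.4 CPM in PBS libraries. It fell in MRC+L (-0.78 ± 0.22, adjusted p = 0.0159) and did not pass in MRC (-0.48 ± 0.22, adjusted p = 0.105), with log2 fold changes of -0.49 and -0.20 without PBS replicate 2. Leaving out MRC+L replicate 2 took Ebp just past the threshold in MRC+L (adjusted p = 0.0532), and leaving out PBS replicate 3 gave a call in MRC (-0.70, adjusted p = 0.00598).

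Sqle, the epoxidase that adds oxygen to squalene, was the late gene that rose. It had 165, 162 and 161 CPM in MRC+L libraries, 172, 143 and 155 CPM in MRC libraries and 127, 103 and 123 CPM in PBS libraries, and each nanoparticle library was above each PBS library. The rise was 1.38-fold in MRC+L (0.47 ± 0.11, adjusted p = 0.00761) and 1.33-fold in MRC (0.41 ± 0.11, adjusted p = 0.0173), where it was lost without MRC replicate 1 or in a fit of the PBS and MRC libraries alone (adjusted p up to 0.0783). Msmo1, Hsd17b7 and Sc5d, which act in C4 demethylation and late desaturation, did not pass in either comparison. Msmo1 averaged 78.0 ± 5.51 CPM in MRC+L, 78.4 ± 8.34 CPM in MRC and 91.0 ± 11.6 CPM in PBS. Sc5d averaged 45.3 ± 1.16 CPM in MRC+L, 48.5 ± 1.51 CPM in MRC and 51.5 ± 3.04 CPM in PBS, with its MRC+L libraries all below PBS (-0.18 ± 0.093, adjusted p = 0.13), and it passed in MRC+L without PBS replicate 2 (adjusted p = 0.0298). Hsd17b7 varied most within PBS, from 9.52 CPM in replicate 2 to 25.6 CPM in replicate 3, and its adjusted p was 0.807 in MRC+L and 0.907 in MRC.

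Per kilobase of exon, the order of the synthesis genes differed between groups. In MRC+L, Sqle led with 29.3 ± 0.386 CPM per kb (SD, n = 3), followed by Msmo1 at 12.7 ± 0.897 and Ggps1 at 10.6 ± 0.551. In PBS, Sqle at 21.2 ± 2.32 CPM per kb and Hmgcs1 at 19.6 ± 1.40 were within their spread of each other, and Pmvk (16.8 ± 7.59), Acat2 (15.9 ± 3.53) and Msmo1 (14.8 ± 1.89) did not differ beyond theirs. Acat2 had 3.96 ± 0.981 CPM per kb in MRC+L and 5.61 ± 0.453 CPM per kb in MRC. Tm7sf2 and Fdps were the lowest in every group, with Fdps at 0.71 ± 0.144 CPM per kb in MRC+L, 0.75 ± 0.292 in MRC and 1.16 ± 0.115 in PBS. Exon length here is the union of all annotated exons, so isoforms shorter than the union are understated.

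Of the 5 genes that control SREBP, Srebf2 and Insig1 fell in both comparisons and none rose. All tested genes gave 24.5% lower and 21.8% higher in MRC+L, and 19.8% lower and 17.8% higher in MRC. Insig1, which retains SREBP in the endoplasmic reticulum and is itself switched on by SREBP, had 29.03, 25.7 and 26.8 CPM in MRC+L libraries, 26.8, 24.1 and 24.5 CPM in MRC libraries and 41.1, 38.2 and 46.1 CPM in PBS libraries. PBS libraries were all above the others, and the fall was 1.54-fold in MRC+L (-0.62 ± 0.11, adjusted p = 0.00151) and 1.66-fold in MRC (-0.73 ± 0.11, adjusted p = 0.000704). Srebf2 encodes SREBP-2 and had 194, 162 and 165 CPM in MRC+L libraries, 178, 208 and 183 CPM in MRC libraries and 296, 199 and 288 CPM in PBS libraries. PBS replicate 2 lay between the MRC libraries and well below the other PBS libraries. Srebf2 fell 1.51-fold in MRC+L (-0.59 ± 0.16, adjusted p = 0.012) and 1.38-fold in MRC (-0.46 ± 0.16, adjusted p = 0.041). The call in MRC was lost in 10 of 18 other settings (adjusted p up to 0.143), among them each fit without 1 library other than PBS replicate 2, and the call in MRC+L without MRC+L replicate 2 (adjusted p = 0.0549). Without PBS replicate 2 the log2 fold changes were -0.75 in MRC+L (adjusted p = 7.03e-07) and -0.63 in MRC (adjusted p = 8.5e-06).

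Srebf1, which encodes SREBP-1 and serves mainly fatty acid synthesis, had 173, 146 and 158 CPM in MRC+L libraries, 140.3, 168 and 157 CPM in MRC libraries and 189.9, 173 and 174 CPM in PBS libraries. The MRC libraries were all below PBS, and those of MRC+L overlapped with PBS. Its log2 fold change was -0.17 in MRC+L (adjusted p = 0.232) and -0.20 in MRC (adjusted p = 0.172). Without PBS replicate 2 it passed in MRC (adjusted p = 0.0422). Scap, the escort protein, had 96.1, 101 and 95.6 CPM in MRC+L libraries, 105, 117 and 99.6 CPM in MRC libraries and 97.1, 79.5 and 92.7 CPM in PBS libraries. Its MRC libraries were all above PBS, but neither comparison passed (adjusted p = 0.389 in MRC+L and 0.089 in MRC). Insig2, which is not a target of SREBP in the way Insig1 is, had 57.8, 47.2 and 55.7 CPM in MRC+L libraries, 49.0, 53.9 and 48.9 CPM in MRC libraries and 48.3, 49.7 and 44.8 CPM in PBS libraries and did not pass (adjusted p = 0.221 in MRC+L and 0.554 in MRC). The 2 INSIG genes thus gave log2 fold changes of -0.62 and 0.17 in MRC+L and of -0.73 and 0.09 in MRC, and the difference between them was not tested.

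All 3 genes of sterol transport inside the cell changed, and not in 1 direction. Stard4 and Npc2 fell and Npc1 rose in both comparisons. The shares over all tested genes were 24.5% lower and 21.8% higher in MRC+L, and 19.8% lower and 17.8% higher in MRC. Stard4, a soluble carrier that delivers cholesterol to the endoplasmic reticulum, had 27.9, 25.2 and 23.8 CPM in MRC+L libraries, 26.1, 29.5 and 30.02 CPM in MRC libraries and 74.9, 56.5 and 89.5 CPM in PBS libraries. No nanoparticle library reached 31 CPM and no PBS library was below 56 CPM. Stard4 fell 2.87-fold in MRC+L (-1.52 ± 0.16, adjusted p = 6.29e-05) and 2.58-fold in MRC (-1.37 ± 0.16, adjusted p = 0.00016). Npc1 and Npc2 hand cholesterol out of the lysosome together, Npc2 as the soluble carrier in its lumen and Npc1 as the membrane protein that takes over. Npc2 had 309, 308 and 329 CPM in MRC+L libraries, 370.2, 346 and 414 CPM in MRC libraries and 634, 1015 and 546 CPM in PBS libraries and the highest level per kilobase of exon of the 30 genes, at 58.0 ± 2.16 CPM per kb in MRC+L, 69.3 ± 6.32 in MRC and 135 ± 45.9 in PBS. It fell 2.32-fold in MRC+L (-1.21 ± 0.20, adjusted p = 0.000977) and 1.94-fold in MRC (-0.96 ± 0.20, adjusted p = 0.00452). Npc1 had 82.2, 82.0 and 75.8 CPM in MRC+L libraries, 77.2, 77.0 and 67.0 CPM in MRC libraries and 43.5, 24.1 and 45.9 CPM in PBS libraries, with every nanoparticle library above every PBS library, and rose 2.12-fold in MRC+L (1.08 ± 0.20, adjusted p = 0.00191) and 1.95-fold in MRC (0.96 ± 0.20, adjusted p = 0.00448). PBS replicate 2 was the highest PBS library for Npc2, a gene with 5438 exon bases, and the lowest for Npc1, with 11317. Without it the log2 fold changes of Npc2 were -0.90 in MRC+L and -0.65 in MRC, and those of Npc1 were 0.84 and 0.72, all with adjusted p of at most 3.28e-06.

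The efflux and receptor genes were few and rose where they could be tested. Those tested rose in MRC+L and in MRC, where 21.8% and 17.8% of all tested genes did so. Abcg1, a transporter that exports cholesterol and is a classic LXR target, had 57.6, 57.1 and 56.8 CPM in MRC+L libraries, 48.2, 56.7 and 47.3 CPM in MRC libraries and 19.0, 16.9 and 24.2 CPM in PBS libraries and lies on chromosome 17 at 31276649 to 31336962 of GRCm39. MRC+L libraries were within 1 CPM of each other, and every one was above the MRC libraries, which in turn were all above PBS. Abcg1 rose 2.85-fold in MRC+L (1.51 ± 0.14, adjusted p = 2.84e-05) and 2.53-fold in MRC (1.34 ± 0.14, adjusted p = 8.2e-05). Mylip, the LXR-driven ubiquitin ligase that degrades lipoprotein receptors, had 25.8, 27.2 and 25.5 CPM in MRC+L libraries, 28.0, 29.9 and 30.7 CPM in MRC libraries and 18.6, 12.3 and 20.8 CPM in PBS libraries. Here the MRC libraries were the highest and PBS the lowest. Mylip rose 1.52-fold in MRC+L (0.60 ± 0.17, adjusted p = 0.0165), a call lost without MRC+L replicate 2 (adjusted p = 0.0547), and 1.71-fold in MRC (0.78 ± 0.17, adjusted p = 0.00562). Abca1, the other well-known LXR-driven exporter, had 2, 3 and 2 counts in MRC+L libraries, 1, 2 and 3 counts in MRC libraries and 1, 3 and 0 counts in PBS libraries. These are at or below 3 counts per library, the most that a count of 0 allows for, and no difference was detectable at this depth.

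**Figure D3:**
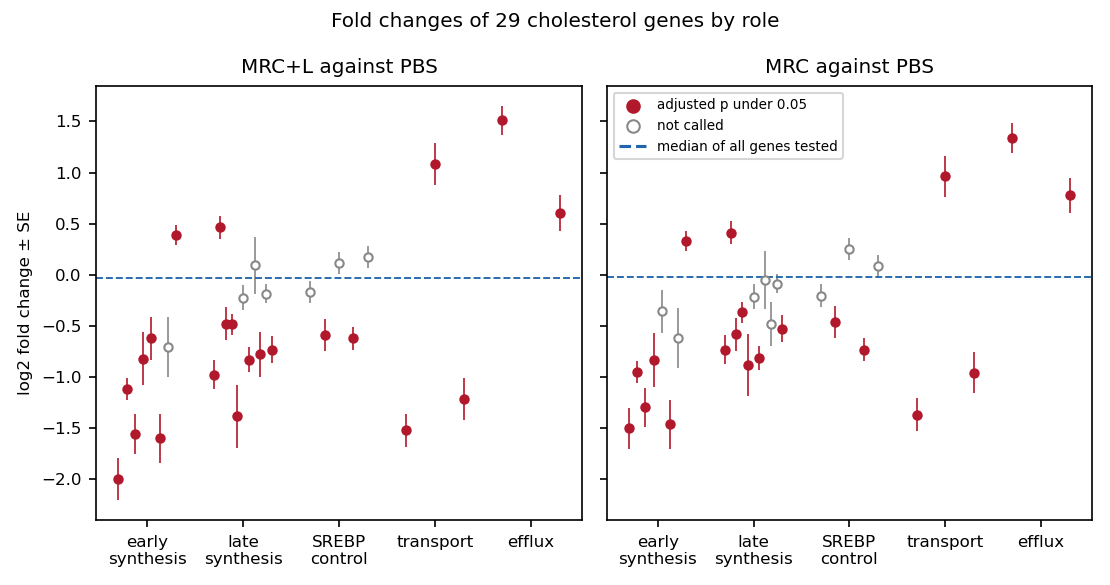
Log2 fold change ± SE (y axis) of the 29 genes tested, grouped by role (x axis), for MRC+L against PBS (left panel) and MRC against PBS (right panel). Filled points have an adjusted p under 0.05, and the dashed line is the median of all genes tested, -0.03 in both panels.

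Set side by side, most synthesis genes fell, while the exporter Abcg1 and the receptor ligase Mylip rose. Abca1, the other exporter of the 30 genes, was too scarce to test, so efflux rests on Abcg1 alone. Over the 19 synthesis genes, 13 fell and 2 rose in MRC+L against PBS (median log2 fold change -0.73). In MRC against PBS, 11 fell and 2 rose (median -0.58). Over all tested genes, 24.5% fell and 21.8% rose in MRC+L, and 19.8% fell and 17.8% rose in MRC. The median of Abcg1 and Mylip, the 2 efflux and receptor genes tested, was 1.06 in both. In each library the median of the synthesis genes over the PBS mean was -0.71, -0.76 and -0.75 in MRC+L, -0.69, -0.57 and -0.53 in MRC, and 0.00, -0.10 and 0.01 in PBS, on the log2 scale. The same value for Abcg1 and Mylip was 1.05, 1.08 and 1.03 in MRC+L, 0.98, 1.14 and 1.03 in MRC, and 0.02, -0.37 and 0.27 in PBS. Summed over the genes, synthesis RNA was 606 ± 19.0 CPM in MRC+L, 627 ± 30.4 CPM in MRC and 799.8 ± 12.5 CPM in PBS, and Abcg1 and Mylip together 83.3 ± 1.00, 80.2 ± 5.58 and 37.3 ± 7.91 CPM in the same groups (SD, n = 3 each). No test was made on these sums or medians, since the genes were chosen by name for their role.

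Leaving out PBS replicate 2 added 2 lower calls in each comparison, Fdps and Sc5d in MRC+L and Fdps and Srebf1 in MRC. The genes described then numbered 19 lower and 5 higher in MRC+L against PBS, where 28.3% of all tested genes were lower and 27.4% higher, and 17 lower and 5 higher in MRC against PBS, where 26% were lower and 24.7% higher. Counts were lowest without MRC+L replicate 2, with 12 lower and 4 higher in MRC+L (17.9% and 16.1% of all genes), and without MRC replicate 1, with 10 lower and 3 higher in MRC (13.6% and 12.2%). Leaving out MRC replicate 2 also gave 10 lower in MRC (14.7% of all genes). Counted by library and not by test, 17 genes had all MRC+L libraries below all PBS libraries and 5 had them above, where 28.1% and 28.2% of all genes did so. In MRC, 16 were below and 6 above, where 24.2% and 24.1% of all genes were.

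Light on top of the nanoparticles gave no call. In MRC+L against MRC, 0 of the 29 genes passed with edgeR, as did 0% of all tested genes, and 1 of the 29 had an unadjusted p under 0.05, where 4.26% of all genes did. DESeq2 called 0 of the 29 as well, and among all genes 12 higher and 13 lower. That 1 gene was Acat2, with -0.50 ± 0.21 (adjusted p = 0.988 by edgeR). The log2 fold changes of the 29 lay between -0.50 and 0.17, with a median of -0.12 against -0.01 over all genes, and 14 of the 19 synthesis genes were negative. In 8 genes all MRC+L libraries were below all MRC libraries, namely Acat2, Mvd, Fdft1, Cyp51, Ebp, Sc5d, Npc2 and Mylip, and in Abcg1 all were above. That is 8 and 1 of 29, where 12.6% and 11.8% of all genes were apart in these directions. When the PBS libraries were left out of the fit, Npc2 was called lower in MRC+L than in MRC, at 309, 308 and 329 CPM in MRC+L libraries, 370.2, 346 and 414 CPM in MRC libraries and 634, 1015 and 546 CPM in PBS libraries (adjusted p = 0.0317), where 1.91% of all genes were called lower. With PBS in the fit the change of Npc2 was -0.26 ± 0.20 (adjusted p = 0.988).

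Other genes around the pathway were read from lists written with these results known, and 57 of 64 passed the filter on low counts. Of 15 tested genes of uptake, transport and esterification, 7 rose and 6 fell in both comparisons. The shares over all tested genes were 21.8% higher and 24.5% lower in MRC+L, and 17.8% higher and 19.8% lower in MRC. Soat2, which esterifies cholesterol for storage, had 40.7, 37.4 and 42.5 CPM in MRC+L libraries, 30.5, 31.1 and 27.5 CPM in MRC libraries and 5.37, 8.11 and 5.66 CPM in PBS libraries. MRC+L libraries were above MRC libraries and these were above PBS, and Soat2 rose 6.30-fold in MRC+L (2.66 ± 0.16, adjusted p = 2.58e-06) and 4.66-fold in MRC (2.22 ± 0.16, adjusted p = 8.94e-06). Gramd1b, which carries cholesterol from the plasma membrane to the endoplasmic reticulum, rose as well, with means of 82.3 ± 0.985 CPM in MRC+L, 69.6 ± 5.70 CPM in MRC and 15.6 ± 3.06 CPM in PBS (SD, n = 3 each). Its log2 fold change was 2.40 ± 0.15 in MRC+L (adjusted p = 2.58e-06) and 2.16 ± 0.15 in MRC (adjusted p = 6.14e-06). In MRC+L against MRC the change of Soat2 did not pass (0.44 ± 0.15, adjusted p = 0.988), though it did in 3 of 18 other settings, one of them the fit without PBS replicate 2.

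**Figure D4:**
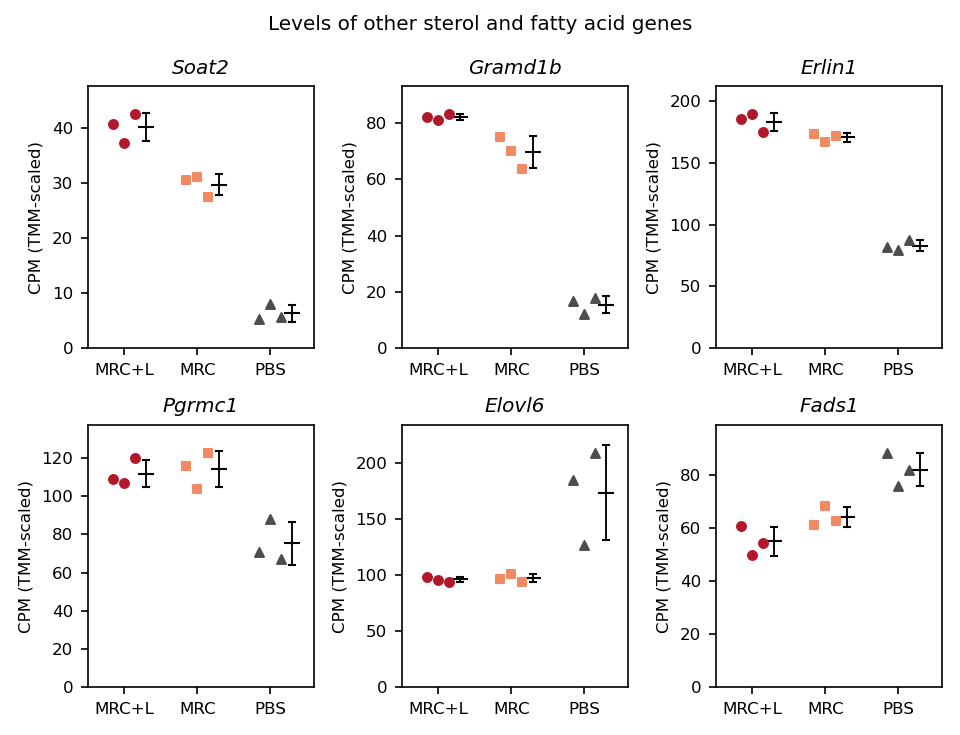
Levels in TMM-scaled CPM (y axes, from 0) of Soat2, Gramd1b, Erlin1, Pgrmc1, Elovl6 and Fads1 in the MRC+L, MRC and PBS libraries (x axis), with 1 point per library and the mean ± SD of 3 libraries beside the points. The means of Soat2, Gramd1b, Erlin1 and Pgrmc1 are higher in both nanoparticle groups than in PBS, and those of Elovl6 and Fads1 are lower.

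Of 10 tested genes for SREBP cleavage and for the sterol-regulated breakdown of enzymes, 5 rose and 1 fell in MRC+L against PBS. In MRC against PBS, 5 rose and 0 fell. Of all tested genes, 21.8% rose and 24.5% fell in MRC+L, and 17.8% rose and 19.8% fell in MRC. Without PBS replicate 2, Mbtps1 also passed as lower in both comparisons, Erlin2 as lower in MRC, and Mbtps2 as higher in MRC+L. In those fits 28.3% of all tested genes were lower and 27.4% higher in MRC+L, and 26% and 24.7% in MRC. Erlin1, a membrane protein that binds the SREBP complex in the endoplasmic reticulum, had 185, 189 and 174 CPM in MRC+L libraries, 173, 167 and 172 CPM in MRC libraries and 82.0, 79.2 and 87.5 CPM in PBS libraries, and rose 2.20-fold in MRC+L (1.14 ± 0.092, adjusted p = 1.1e-05) and 2.06-fold in MRC (1.04 ± 0.092, adjusted p = 2.61e-05). Pgrmc1, a haem-binding partner of Cyp51 and of INSIG proteins, rose 1.48-fold in MRC+L (adjusted p = 0.00443) and 1.51-fold in MRC (adjusted p = 0.00422).

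Of 14 tested fatty acid genes driven mainly by SREBP-1, 4 fell and 0 rose in MRC+L against PBS, and 3 fell and 1 rose in MRC against PBS, with median log2 fold changes of -0.09 and -0.03. With PBS replicate 2 in the fit, the lower calls were near the share over all tested genes, of which 24.5% fell in MRC+L and 19.8% in MRC. The shares that rose were 21.8% and 17.8%. Whether the list differs from cholesterol synthesis was not tested. Elovl6, which lengthens saturated fatty acids, averaged 96.3 ± 2.38 CPM in MRC+L, 97.5 ± 3.44 CPM in MRC and 174 ± 42.3 CPM in PBS and fell in both (adjusted p = 0.00191 in MRC+L and 0.00269 in MRC). The desaturases Fads1 and Fads2 fell in MRC+L (-0.57 ± 0.11 and -0.55 ± 0.1, adjusted p = 0.00199 and 0.00152). In MRC, Fads1 fell (-0.35 ± 0.11, adjusted p = 0.0273), a call lost in 6 settings that include leaving out replicate 1 of PBS or replicate 1 or 3 of MRC (adjusted p up to 0.136), and Fads2 had -0.24 ± 0.099 (adjusted p = 0.0832). Lpin1, a phosphatidate phosphatase, fell in MRC+L (-0.67 ± 0.20, adjusted p = 0.0204), a call lost in 4 settings, among them the fits without PBS replicate 1 or MRC+L replicate 2 or 3, and in MRC (-0.82 ± 0.20, adjusted p = 0.00989). Mid1ip1, which promotes acetyl-CoA carboxylase, rose in MRC (0.41 ± 0.12, adjusted p = 0.0245), a call lost in 8 settings, with any MRC library or replicate 1 or 3 of PBS left out among them. Without PBS replicate 2, Aacs, Acly and Scd1 also passed as lower in MRC+L, and Acaca, Mid1ip1 and Scd2 as higher. In MRC, Aacs, Acly, Acss2, Fads2 and Scd1 then also passed as lower. Without that library, 28.3% of all tested genes were lower and 27.4% higher in MRC+L. In MRC, 26% were lower and 24.7% higher.

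The genes of the LXR and RXR receptors, listed with further LXR-driven genes, gave few calls. Whether these receptors acted on Abcg1 and Mylip here was not tested. Among all tested genes, 21.8% rose and 24.5% fell in MRC+L, and 17.8% rose and 19.8% fell in MRC. Of 6 tested LXR, RXR and further LXR-driven genes, 0 rose and 0 fell in MRC+L against PBS, with 0 at an unadjusted p under 0.05, and in MRC against PBS only Rxrb rose (0.42 ± 0.13, adjusted p = 0.0252), a call lost in 7 settings, among them each fit without PBS replicate 1 or 3 or any MRC library. Without PBS replicate 2, Rxra passed as lower and Rxrb as higher in MRC+L against PBS, and without PBS replicate 3 Nr1h2 passed as lower (adjusted p = 0.0487). DESeq2 called 0 of the 6 in MRC+L against PBS, where it called 24.3% of all tested genes higher and 25.8% lower. Voom called 3 of the 6, where it called 36.2% of all tested genes higher and 37.1% lower. Nr1h2 and Nr1h3, which encode the 2 LXR receptors and were singled out after their values were seen, averaged 53.9 ± 3.48 CPM in MRC+L, 56.3 ± 2.11 CPM in MRC and 61.4 ± 8.20 CPM in PBS for Nr1h2 and 5.24 ± 0.485 CPM in MRC+L, 5.56 ± 0.0513 CPM in MRC and 5.18 ± 1.26 CPM in PBS for Nr1h3. In the isoprenoid branches, 4 of 10 genes rose in MRC+L and 1 of 10 in MRC, where 21.8% and 17.8% of all tested genes rose. Pggt1b, a subunit of the enzyme that attaches geranylgeranyl groups to proteins, and Pdss2, which builds the tail of coenzyme Q, rose in MRC+L (adjusted p = 0.0208 and 0.0341). Fntb, the beta subunit of farnesyltransferase, rose in MRC+L (0.35 ± 0.12, adjusted p = 0.034) and in MRC (0.38 ± 0.12, adjusted p = 0.0294), calls lost in 9 and 8 settings, among them each fit without PBS replicate 1 or 3 or MRC replicate 1, those without MRC+L replicate 1 or 3 in MRC+L, and that without MRC replicate 2 in MRC. The calls of Pggt1b and Pdss2 were lost in 7 and 13 of the 18 other settings (adjusted p up to 0.674 and 0.128), among them each fit without PBS replicate 1 or any MRC+L library. Without PBS replicate 2, Dhdds and Rce1 also passed as higher in both comparisons, and Pdss2 in MRC. In those fits 27.4% of all tested genes were higher in MRC+L and 24.7% in MRC. Of 5 genes that make oxysterols and bile acids, Ch25h, Cyp27a1 and Cyp7b1 had 0 counts in all 9 libraries, which allows 0.150 to 0.200 CPM, and the 2 tested, Hsd3b7 and Cyp46a1, did not pass. Hsd3b7 passed as higher in MRC+L in 4 other settings, among them the fit without PBS replicate 2.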

How the data were processed

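The authors deposited 1 table per library with raw counts per gene and the exon length of each gene. Per the file headers, featureCounts 2.0.1 summed the counts over exons of Ensembl release 104 (GRCm39) without a strand option, so overlapping and antisense genes are uncertain. The aligner is not given in the sources used here. Symbols came from GENCODE M21, matched by gene ID, and named 52083 IDs (94%). Genes were kept with the edgeR filter (minimum count 10, minimum total 15) and tested in R 4.3.3 with the quasi-likelihood test of edgeR 4.0.16, TMM factors and 1 mean per group over 9 libraries. The p-values were adjusted over all genes kept. Alternatives were DESeq2 1.42.0, limma 3.58.1 (voom with quality weights), other scaling factors, no filter, a replicate block, removal of a gene-length trend, fits of 2 groups and leaving out each library. Tables and plots used Python 3.11.15, pandas 2.3.3 and matplotlib 3.10.9. The tests were checked on simulated counts. Shared 75-base stretches were counted in the GENCODE M21 transcripts. The 30 genes and all lists were chosen with earlier results of these data known. Each of the 30 is described, and from each further list the text names up to 3 called genes with the lowest adjusted p in each comparison with PBS. Some others are named where a change of setting moved their call, or after their values were seen. Some genes of these lists count in their totals but are not reported here. Libraries of 1 group differed by more than counting noise (chi-square per degree of freedom 3.83 to 157, the highest between PBS replicates 2 and 3). Each was entered in the fits as its own sample, and whether they came from separate cultures is not known. Floors cover counting error only.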

Additional observations from a re-analysis of the deposited data

How the results depend on the processing

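Over 18 other settings, no gene of the 30 reversed a call. In MRC+L against PBS 15 genes kept their call in every setting, and 12 did in MRC against PBS. The share of all tested genes that did so was not computed, so these counts cannot be set against it. In MRC+L against PBS, synthesis genes called higher numbered 1 without a count filter, where 11.7% of all genes were higher. With voom, 4866 genes were called higher and 4990 lower. The synthesis median was -0.64 with the length trend removed and -0.82 to -0.64 with 1 library left out. In MRC against PBS, 3 of the 30 were higher in a fit of 2 groups, where 12.9% of all genes were. With 1 library left out 3 to 5 were higher, where 12.2% to 24.7% of all genes were. Synthesis genes called higher there numbered 1 without a filter (9.79% of all genes), 1 with the replicate block (15.3%), 0 with 2 groups and 0 to 2 with 1 library left out, those called lower 7 to 13, and the median was -0.63 to -0.46. With 1 library left out, 13.6% to 26% of all genes were lower. Voom called 4433 genes higher and 4418 lower. In MRC+L against MRC, 1 gene of the 30 was lower with 2 groups, where 1.91% of all genes were. Genes called over the whole table there, higher and lower, were 12 and 13 with DESeq2, 7 and 8 without a filter, 143 and 119 with voom, 3 and 1 with the length trend removed, 2 and 2 with that and the replicate block, 406 and 248 with 2 groups, and 0 to 43 and 0 to 46 with 1 library left out, most without PBS replicate 2. Fnta turned to a log2 fold change of 0.20 in MRC against PBS under voom (adjusted p = 0.0241). The causes were not tested.

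Replicate numbers do not pair the libraries: deviations of libraries with the same number correlated between -0.185 and 0.0385. With the replicate block, the 30 genes gave 17 lower and 5 higher in MRC+L against PBS, and 12 lower and 4 higher in MRC against PBS. The shares of all tested genes in that fit were 21.3% lower and 19.6% higher in MRC+L. In MRC they were 16.5% lower and 15.3% higher. Depth limits Abca1, the oxysterol genes and the LXR receptor Nr1h3.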

Other observations

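Among the further genes of uptake and transport, several that the naming rule did not reach moved by more than 1.5-fold in both comparisons with PBS. Gramd1c and Lrp8 rose and Lipa and Scp2 fell to this extent, and Osbp, Stard3 and Lrp1 are described here. These 3 were picked after their values were seen. Osbp, which exchanges cholesterol between the endoplasmic reticulum and the Golgi, had 165, 158 and 162 CPM in MRC+L libraries, 134, 131 and 128 CPM in MRC libraries and 65.6, 57.5 and 80.7 CPM in PBS libraries, with all groups apart, and rose 2.38-fold in MRC+L (1.25 ± 0.13, adjusted p = 3.95e-05 by edgeR) and 1.93-fold in MRC (0.95 ± 0.12, adjusted p = 0.000286). Stard3, which tethers late endosomes to the endoplasmic reticulum and passes cholesterol between them, had 22.9, 25.5 and 29.5 CPM in MRC+L libraries, 29.1, 30.9 and 30.3 CPM in MRC libraries and 49.9, 54.3 and 46.9 CPM in PBS libraries, and fell 1.94-fold in MRC+L (adjusted p = 0.00016) and 1.67-fold in MRC (adjusted p = 0.000921). Lrp1, an endocytic receptor for lipoproteins, had 93.7, 80.7 and 75.4 CPM in MRC+L libraries, 73.0, 110.3 and 81.1 CPM in MRC libraries and 265, 141 and 346 CPM in PBS libraries. It fell 3.01-fold in MRC+L (adjusted p = 0.00148) and 2.84-fold in MRC (adjusted p = 0.00245), with PBS replicate 2 the lowest of its group and still above every nanoparticle library.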
